A study of Homo sapiens with 24 samples.

Results

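The constitutive proteasome genes, PSMA1 to PSMA7, PSMB1 to PSMB7, PSMC1 to PSMC6 and PSMD1 to PSMD14, were followed through 4 RNA-seq experiments on OE33, an esophageal adenocarcinoma cell line. The members were taken by symbol, from a list made with earlier results of these data known, and all 34 were found among the 61860 Ensembl gene rows of each count table, 14 of them for the core particle and 20 for the regulatory particle, and the immunoproteasome genes were left out. Each experiment had 3 treated and 3 control libraries. In the first, OE33 xenografts grew under the skin of nude mice that had been bought at 4 weeks of age and fed for 8 weeks before injection, either with high-fat chow (the HFD group) or with normal chow (the ND group), and the tumors were taken after 21 days. In the second, cultured OE33 cells were transfected for 48 h with a plasmid for HA-tagged TRIM15, an E3 ubiquitin ligase, or with the empty vector (EV). In the remaining experiments, OE33 cells received for 72 h a short hairpin RNA against YY2, a zinc finger transcription factor (shYY2), or against FOXRED1, a mitochondrial protein needed for assembly of respiratory complex I (shFOXRED1), each beside its own control hairpin (shControl). The study asked how diet, TRIM15, YY2 and FOXRED1 change gene expression along 1 proposed axis. All groups share the same tumor line and nude mice lack mature T cells; how many hairpins were used per gene, and whether replicates were separate cultures or animals, is not given in the labels, so p-values measure the spread between these samples only.

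The proteasome degrades proteins that carry ubiquitin chains. Its core particle is a barrel of stacked alpha and beta rings, and 3 of its beta subunits, PSMB5, PSMB6 and PSMB7, cut proteins. The regulatory particle caps the barrel: a base with a ring of ATPases (PSMC genes), scaffold subunits and a ubiquitin receptor unfolds the substrate, and a lid carries PSMD14, which removes the ubiquitin chain. PSMD5, PSMD9 and PSMD10 are chaperones that help to build the base and are not part of the finished particle. The subunit genes are widely expressed and are known to be induced together by the transcription factor NFE2L1 when proteasome activity is low.

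Libraries held between 14299807 and 45994561 counts. The members took 0.497% to 0.504% of all counts with HFD and 0.539% to 0.543% with ND, 0.63% to 0.656% with HA-TRIM15 and 0.673% to 0.676% with EV, 0.333% to 0.338% with shYY2 and 0.547% to 0.555% with its shControl, and 0.346% to 0.36% with shFOXRED1 and 0.391% to 0.401% with its shControl. The 6 epithelial markers had summed levels between 10030 and 15190 CPM (counts scaled to 1000000 per library, with TMM factors within each experiment) in the 24 libraries, and none was at 0. The 5 endothelial markers stayed under 1 CPM in sum, with 0 to 4 of them at 0. All marker rows were human genes, so their levels do not tell how many mouse host cells the xenografts held. Of the 6 fibroblast markers COL1A1 alone passed the filter on low counts and 0 to 5 were at 0, and the summed level of that list was 42.4 to 43.9 CPM with shYY2 against 10.5 to 11.2 CPM in its control and 38.5 to 41.8 CPM with shFOXRED1 against 24.2 to 25.5 CPM. The 6 leukocyte markers, mostly ITGAM, summed to 5.36 to 16.3 CPM, with 1 to 4 at 0. With shYY2 the leukocyte sum was 5.95 to 7.08 CPM against 10.6 to 12.1 CPM, and the epithelial sum 14680 to 15190 CPM against 10780 to 11490 CPM. That higher epithelial sum was mostly KRT19, at 9775 to 10220 CPM against 6128 to 6630 CPM. It was not shared by the whole list, as 3 of the 6 epithelial markers were higher and 3 lower. The part of the marker lists in the proteasome results was not tested. The targeted genes followed the labels: TRIM15 was counted 14, 12 and 24 times in HFD tumors against 1, 0 and 0 in ND tumors, and 111, 130 and 181 times with HA-TRIM15 against 0 in each EV library. YY2 was counted 11, 12 and 11 times with shYY2 against 43, 40 and 46 times, and FOXRED1 183, 207 and 129 times with shFOXRED1 against 322, 259 and 254 times. In these bulk samples, fewer cells with a transcript and less of it per cell cannot be told apart.

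Promoter sequences from RefSeq on GRCh38.p14, from 250 bases before to 50 bases after an annotated start, were held for 29 members; PSMA7, PSMB1, PSMB6, PSMB7 and PSMD4 had no entry. Windows of 4 members are shown because they belong to members on which the knockdown results turn: PSMC4 and PSMD14 had the largest falls of all members with shYY2, PSMB2 had the largest fall of the core genes with both hairpins, and PSMC5 fell most among members that hold the YY1/YY2-type word AANATGGC. Capitals mark matches, on either strand, to AANATGGC, to the NFE2L1/NFE2L2-type words TGACNNNGC and TGAGNNNGC, to CCAAT (NF-Y), to CACGTG (an E-box) and to CCGGAAG (ETS factors). The windows were chr19:39970915-39971214 (plus strand) for PSMC4, chr2:161308175-161308474 (plus strand) for PSMD14, chr1:35641477-35641776 (minus strand) for PSMB2 and, around the downstream of its 2 listed starts, chr17:63827471-63827770 (plus strand) for PSMC5.
PSMC4: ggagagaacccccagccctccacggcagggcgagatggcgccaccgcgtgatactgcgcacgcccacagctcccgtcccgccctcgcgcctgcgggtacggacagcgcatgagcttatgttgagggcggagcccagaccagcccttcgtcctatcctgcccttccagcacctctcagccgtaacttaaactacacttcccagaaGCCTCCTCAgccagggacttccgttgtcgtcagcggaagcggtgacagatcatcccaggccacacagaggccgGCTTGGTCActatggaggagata
PSMD14: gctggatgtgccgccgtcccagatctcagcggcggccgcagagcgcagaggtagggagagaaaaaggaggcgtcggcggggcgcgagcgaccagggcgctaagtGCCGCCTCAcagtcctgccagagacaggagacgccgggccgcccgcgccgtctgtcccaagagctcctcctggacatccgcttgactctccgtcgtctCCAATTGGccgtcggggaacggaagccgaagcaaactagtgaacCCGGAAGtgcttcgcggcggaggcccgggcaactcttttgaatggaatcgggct
PSMB2: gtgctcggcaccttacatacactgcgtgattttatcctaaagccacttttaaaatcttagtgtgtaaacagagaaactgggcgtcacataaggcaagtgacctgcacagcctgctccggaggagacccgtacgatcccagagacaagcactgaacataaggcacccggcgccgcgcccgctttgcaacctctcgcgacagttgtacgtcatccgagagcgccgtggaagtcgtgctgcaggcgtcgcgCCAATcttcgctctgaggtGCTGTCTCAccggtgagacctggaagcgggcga
PSMC5: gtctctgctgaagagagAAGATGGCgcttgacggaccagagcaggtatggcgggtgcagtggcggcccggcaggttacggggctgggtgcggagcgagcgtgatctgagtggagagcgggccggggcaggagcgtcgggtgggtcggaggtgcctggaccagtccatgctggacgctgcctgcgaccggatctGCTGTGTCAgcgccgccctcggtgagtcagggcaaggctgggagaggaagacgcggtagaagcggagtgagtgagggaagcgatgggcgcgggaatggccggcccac

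The PSMC4 window held TGAGNNNGC on the reverse strand from base -46 and TGACNNNGC on the reverse strand from base 28, with the start as base 1. PSMD14 held a pair of overlapping CCAAT words on opposite strands, from bases -48 and -45, a CCGGAAG from base -4 and a TGAGNNNGC from base -146. Neither AANATGGC nor CACGTG was found in the PSMC4, PSMD14 or PSMB2 windows. Over all members with an entry, AANATGGC occurred in 9 of 29 (31.0%), against 7.97% of 27305 genes with such windows. CCGGAAG occurred in 11 (37.9% against 12.16%), of which 10 belonged to the regulatory particle. TGACNNNGC occurred in 9 (31.0% against 16.06%), TGAGNNNGC in 11 (37.9% against 21.62%), CCAAT in 16 (55.2% against 39.72%) and CACGTG in 2 (6.9% against 8.77%). A match to one word could overlap a match to another. A gene with several starts counted once if any of its windows held the word, and the number of starts per gene was not matched. PSMD2 and PSMC5 held AANATGGC only in a downstream window. A match is a description of the letters and not a binding site, and CCGGAAG was found in 7 members when only the bases before the start were read.

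Levels per exon length differed widely between members, also between those that encode subunits of the finished particle. In the shControl libraries of the YY2 experiment, the lid gene PSMD3 had the highest level, 283 ± 1.91 CPM per kb of exon (SD, n = 3). The alpha subunit gene PSMA7 came next with 156 ± 3.07 CPM per kb. Both held these ranks in all 4 control groups, also when the longest transcript was used as length. PSMC2, an ATPase gene, and PSMB7 followed with 94.7 ± 1.77 and 87.9 ± 1.79 CPM per kb, and PSMD2 with 84.1 ± 3.99 CPM per kb overlapped PSMB7 in its 3 libraries. Lengths changed this order: PSMB7 ranked 3 and PSMC2 ranked 6 by the longest transcript. At the lower end stood PSMA6 (1.85 ± 0.048 CPM per kb), PSMA2 (0.693 ± 0.064) and PSMD9 (0.582 ± 0.10), and PSMA2 and PSMD9 overlapped between libraries. PSMB3 was counted in single reads or not at all, was listed at 0.0298 ± 0.026 CPM per kb, and was the 1 member that did not pass the filter in any experiment, so 33 members were tested. Why the PSMB3 row was nearly empty, with 31 counts over the 24 libraries, was not tested. Some other genes with low levels share sequence with other rows. Unnamed protein-coding genes on the same strand covered 24.66% of PSMA1, 14.64% of PSMA2 and 14.13% of PSMA6 exon bases. The processed pseudogene PSMA6P1 held counts equal to 25.2% of those of PSMA6. How reads shared by such rows were assigned is not given in the sources used here.

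**Figure D1:**
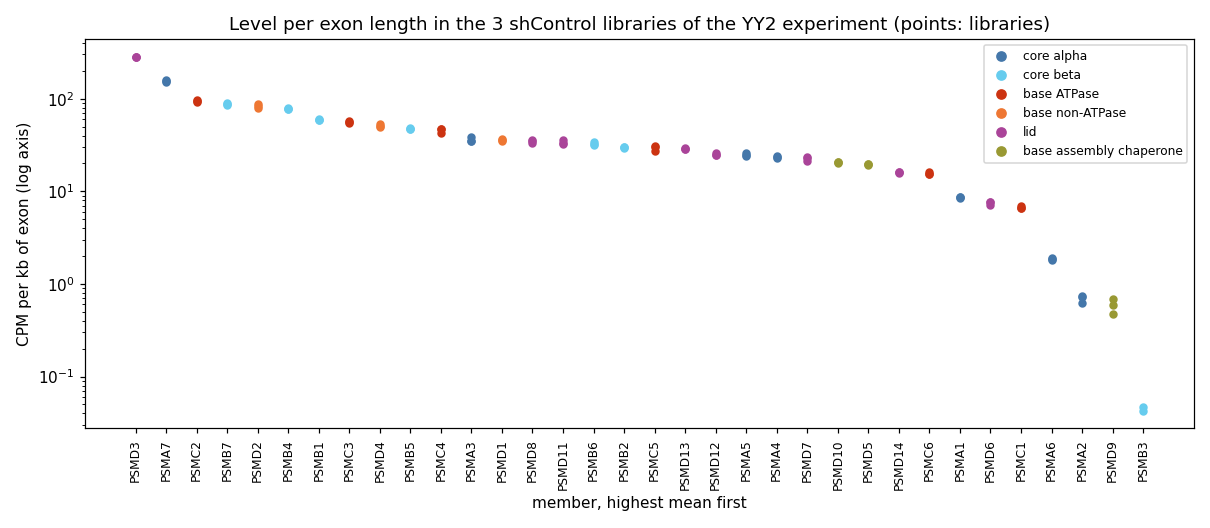
Level of each member in CPM per kb of exon (log axis) in the 3 shControl libraries of the YY2 experiment, 1 point per library, ordered by the mean and coloured by subcomplex; values of 0 are not drawn. PSMD3 at 283 and PSMA7 at 156 CPM per kb stand highest, and PSMA2, PSMD9 and PSMB3 lie below 1.

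Knockdown of YY2 came with lower RNA of almost every proteasome gene, and with larger falls for the regulatory than for the core particle. In all, 30 of the 33 tested members fell (90.9%) and 0 rose, where 38.1% of all 16006 genes tested fell and 36.8% rose. No member rose at an unadjusted p under 0.05 in edgeR's quasi-likelihood test, nor in DESeq2's Wald test after adjustment. For 31 members the libraries of both groups did not overlap, against 76.3% of all genes. All 8 lid genes, all 6 ATPase genes and all 3 other base genes (PSMD1, PSMD2 and PSMD4) fell, and the median log2 fold change was -0.78 for the regulatory particle and -0.44 for the core particle, with -0.0081 over all genes. Within the regulatory particle the median was -1.11 for the ATPases, -1.07 for the other base genes, -0.73 for the lid and -0.24 for the chaperones. A log2 fold change of -1 or lower was found for 8 genes of the regulatory particle and 0 of the core.

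PSMC4, which encodes an ATPase of the base, was measured at 33.5, 34.4 and 31.9 CPM with shYY2 and at 112, 114 and 102 CPM with shControl. Every shYY2 library lay far below every control library. This was a 3.27-fold lower level (log2 fold change -1.71 ± 0.05 SE, adjusted p = 6.46e-14). PSMD14, the deubiquitinase of the lid, stood at 37.4, 42.5 and 36.8 CPM against 125, 124 and 122 CPM. Its groups were as clearly apart, with a 3.19-fold lower level (log2 fold change -1.67 ± 0.045, adjusted p = 2.80e-14). PSMD1, a scaffold subunit of the base, fell by 1.49 ± 0.035 on the log2 scale, PSMC3 by 1.31 ± 0.035 and the lid gene PSMD12 by 1.27 ± 0.034. The ATPase genes PSMC5 and PSMC2 fell by 1.11 ± 0.045 and 1.10 ± 0.031, the scaffold gene PSMD2 by 1.07 ± 0.040 and the lid gene PSMD11 by 0.96 ± 0.043. PSMC1 and PSMC6 fell least among the ATPases, by 0.67 ± 0.051 and 0.50 ± 0.035. PSMD3, the most abundant member, went from 1413, 1395 and 1407 CPM to 949, 945 and 921 CPM (log2 fold change -0.58 ± 0.024, adjusted p = 4.30e-12). PSMD4, a ubiquitin receptor, fell by 0.51 ± 0.040, and the chaperone genes PSMD5 and PSMD10 by 0.80 ± 0.036 and 0.24 ± 0.046. PSMD9 had overlapping groups, a log2 fold change of -0.23 ± 0.17 and an adjusted p of 0.225.

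Among core genes, PSMB2, a beta subunit without a known cutting site, fell most. It stood at 79.7, 79.8 and 79.1 CPM with shYY2 and 144, 147 and 147 CPM with shControl, a 1.83-fold lower level (log2 fold change -0.87 ± 0.031, adjusted p = 5.09e-13). PSMA7 followed with 166, 163 and 164 CPM against 273, 267 and 278 CPM (-0.73 ± 0.029, adjusted p = 2.13e-12). Both genes kept a wide gap between the groups. The 3 cutting subunits fell by less. PSMB5, the chymotrypsin-like subunit, was at 61.4, 60.9 and 60.7 CPM against 83.1, 82.6 and 85.4 CPM (-0.46 ± 0.035, adjusted p = 6.34e-09). PSMB6, the caspase-like subunit, was at 32.99, 30.9 and 29.3 CPM against 46.3, 47.2 and 49.5 CPM (-0.62 ± 0.053, adjusted p = 2.49e-08). PSMB7, the trypsin-like subunit, was at 127, 127 and 124 CPM against 157, 154 and 161 CPM (-0.32 ± 0.030, adjusted p = 1.02e-07). None of the 3 had overlapping groups. Of the other alpha subunits, PSMA1 fell by 0.73 ± 0.070, PSMA3 by 0.50 ± 0.041, PSMA5 by 0.44 ± 0.034 and PSMA4 by 0.42 ± 0.033. PSMB1 and PSMB4 fell by 0.29 ± 0.030 and 0.28 ± 0.031. PSMA2 and PSMA6 did not pass the threshold, at -0.12 ± 0.14 (adjusted p = 0.458) and -0.10 ± 0.080 (adjusted p = 0.276).

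**Figure D2:**
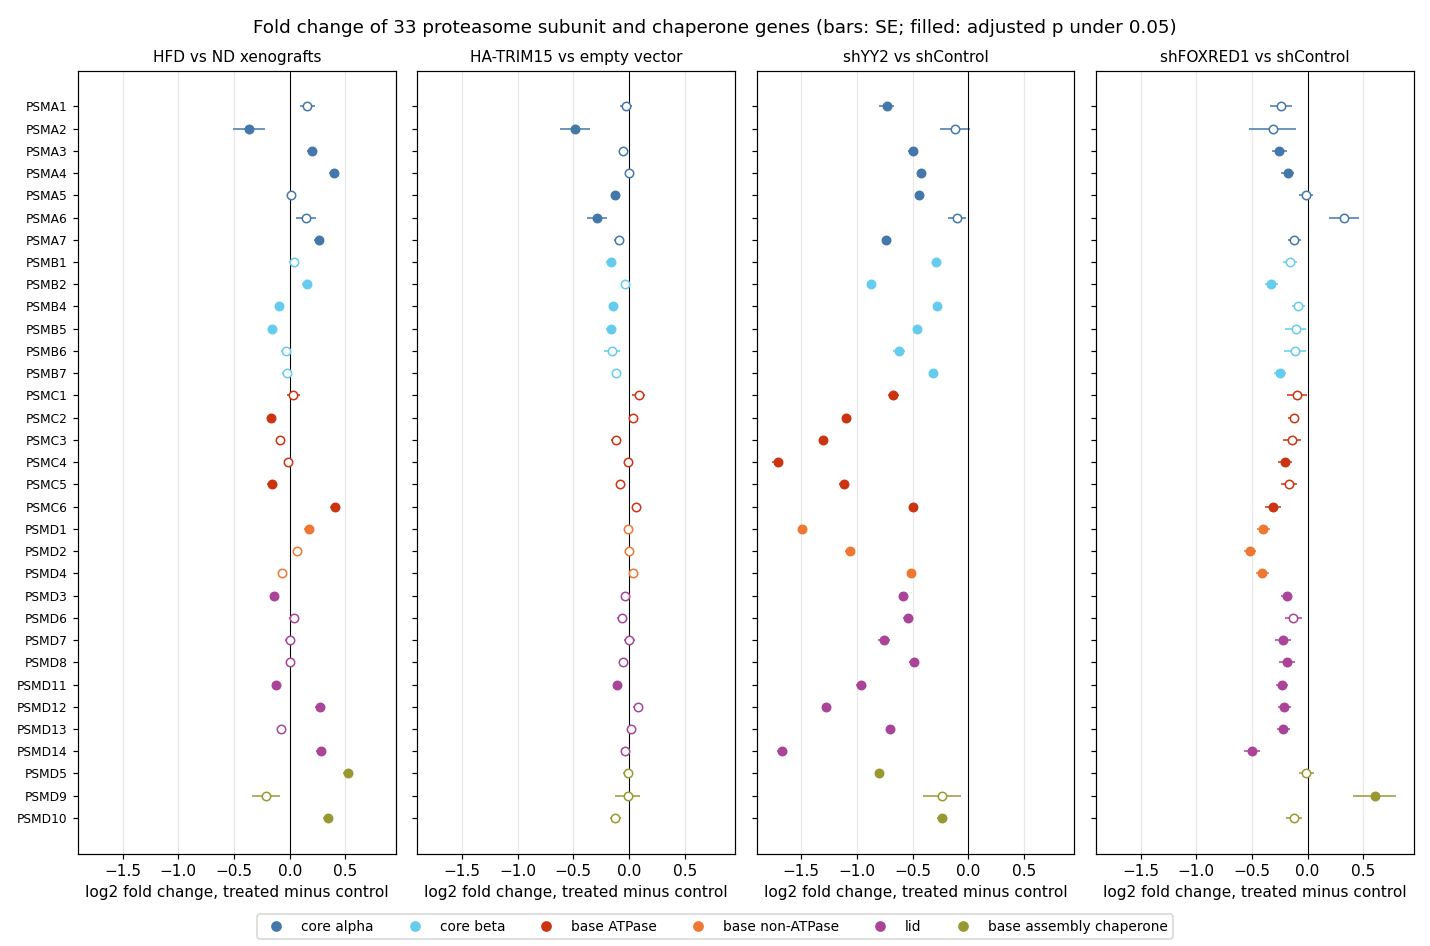
Log2 fold change of the 33 tested members, treated minus control, in the 4 experiments, with bars for the SE, colours for the subcomplex and filled points for an adjusted p under 0.05. In the shYY2 panel all points lie left of 0 and genes of the base and lid reach furthest, to -1.71 for PSMC4, while points of the HFD panel lie on both sides of 0.

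Genes on the other strand overlap a few members, and the sources differ on whether the libraries kept the strand. NRDE2 exons covered 75.82% of PSMC1 exon bases, and NRDE2 itself had a log2 fold change of -0.18 ± 0.11 with shYY2. An unnamed transcript covered 30.73% of PSMD7 exon bases, with counts equal to 10.48% of those of PSMD7. FTSJ3 covered 19.47% of PSMC5 and fell by 0.81 ± 0.040, less than PSMC5. SIRT3 covered 6.629% of PSMD13 and rose by 0.49 ± 0.061, while PSMD13 fell by 0.70 ± 0.033. The presence of a promoter word did not go with the larger falls in any one way: the median log2 fold change with shYY2 was -0.49 for the 9 members with AANATGGC and -0.70 for the 19 tested members without it, and -0.96 for the 8 tested members with TGACNNNGC against -0.61 for the 20 without it. These medians are descriptions with no test.

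Genes that build, open or feed the proteasome were counted from lists of 43 further genes, of which 40 were tested in the YY2 experiment. With shYY2, 28 of the 40 fell and 6 rose, where 38.1% of all genes fell and 36.8% rose, and their median log2 fold change was -0.27. ADRM1, a ubiquitin receptor of the regulatory particle, fell by 1.06 ± 0.044, and SEM1, a small lid subunit, did not pass the threshold. The 3 activator and inhibitor genes fell, PSME3 of the nuclear activator by 1.41 ± 0.031, PSMF1 by 0.47 ± 0.030 and PSME4 by 0.34 ± 0.031. The proteasome-bound deubiquitinases UCHL5 and USP14 fell by 1.25 ± 0.037 and 1.07 ± 0.039. Of the 6 assembly factor genes 4 fell, PSMG1 by 1.06 ± 0.070, PSMG3 by 0.77 ± 0.075, POMP by 0.62 ± 0.044 and PAAF1 by 0.28 ± 0.065. In the list around NFE2L1, 6 of 10 fell and 3 rose, with a median log2 fold change of -0.20. NFE2L1 fell by 0.66 ± 0.030 and the segregase VCP by 0.69 ± 0.036, while the protease gene DDI2, which cleaves NFE2L1, rose by 0.48 ± 0.035. The zinc finger gene ZFAND5 rose by 0.46 ± 0.027. Of the shuttle factors that carry substrates to the proteasome, 4 fell and UBQLN2 rose by 0.30 ± 0.040. UBA6, a ubiquitin-activating enzyme, fell by 0.70 ± 0.027 and UBA1, the main such enzyme, by 0.26 ± 0.030.

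Knockdown of FOXRED1 came with smaller falls of fewer proteasome genes, most of them in the regulatory particle. Here 16 of 33 members fell (48.5%) and 1 rose, against 19.7% lower and 16.8% higher of all 15730 genes tested. For 23 members no library of one group lay within the range of the other, against 46.7% of all genes. In the regulatory particle 12 of 20 fell and in the core 4 of 13, with medians of -0.20 and -0.16 beside 0.012 over all genes. Within this experiment no core gene rose in edgeR's test or in DESeq2's Wald test, and 2 members had a higher level at an unadjusted p under 0.05. In the joint edgeR fit of all 24 libraries 7 core genes fell and PSMA6 rose (log2 fold change 0.32, adjusted p = 0.0158). All 3 base genes outside the ATPase ring and 7 of 8 lid genes fell.

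PSMD2 was at 253, 242 and 230 CPM with shFOXRED1 and at 358, 335 and 346 CPM with shControl. The groups were well apart, a 1.43-fold lower level (log2 fold change -0.52 ± 0.052, adjusted p = 6.77e-07). PSMD14 was at 54.6, 49.97 and 48.6 CPM against 67.2, 74.5 and 76.0 CPM, again without overlap (-0.50 ± 0.072, adjusted p = 3.12e-05). PSMD4 fell by 0.41 ± 0.060 and PSMD1 by 0.40 ± 0.060. Among the ATPases PSMC6 fell by 0.31 ± 0.070 and PSMC4 by 0.20 ± 0.064. In the lid, PSMD11, PSMD7, PSMD13, PSMD12, PSMD3 and PSMD8 fell by 0.23 to 0.19, each with an SE between 0.050 and 0.072, and PSMD8 had overlapping groups. In the core, PSMB2 was at 68.6, 71.2 and 73.8 CPM against 89.3, 91.8 and 86.1 CPM (-0.33 ± 0.062, adjusted p = 0.000484). PSMA3 was at 71.99, 77.0 and 82.2 CPM against 88.0, 92.9 and 94.8 CPM (-0.25 ± 0.065, adjusted p = 0.00545). Neither gene had overlapping groups. PSMA4 fell by 0.18 ± 0.060. Its call was lost without shFOXRED1 replicate 1 or 2 or any 1 shControl library (adjusted p = 0.0610 to 0.168). Those of PSMC4 and PSMD12 were lost without shFOXRED1 replicate 1 (0.0575 and 0.0552) or 2 (0.0784 and 0.0532), and that of PSMC4 also without shControl replicate 2 (0.129). That of PSMD7 was lost without shFOXRED1 replicate 2 (0.0717) or shControl replicate 2 (0.0700) or 3 (0.0981), and that of PSMD8 without shFOXRED1 replicate 1 (0.178) or shControl replicate 1 (0.156) or 2 (0.157).

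Of the cutting subunits, PSMB7 fell with shFOXRED1, from 160, 164 and 153 CPM to 136, 136 and 130 CPM (-0.25 ± 0.055, adjusted p = 0.00191). PSMB5 was at 64.3, 65.0 and 48.4 CPM against 67.0, 64.4 and 60.6 CPM, with 1 low shFOXRED1 library and overlapping groups (-0.11 ± 0.092, adjusted p = 0.386). Without shFOXRED1 replicate 3 its log2 fold change was 0.011. PSMB6 was at 28.8, 24.9 and 21.7 CPM against 28.3, 27.1 and 26.4 CPM, also overlapping (-0.12 ± 0.10, adjusted p = 0.392), and its log2 fold change was -0.22 without shFOXRED1 replicate 1 and -0.028 without shFOXRED1 replicate 3. The chaperone gene PSMD9 was the member that rose, with 5.66, 4.38 and 4.72 CPM against 3.41, 3.65 and 2.65 CPM. Its groups did not overlap, but its level was low (log2 fold change 0.60 ± 0.20, adjusted p = 0.0225), and the adjusted p was 0.113 without shFOXRED1 replicate 1 and 0.0986 without shControl replicate 3. Over well-counted genes same-numbered libraries of this experiment deviated together, and with the replicate number as a block 5 more members fell: PSMA7 (adjusted p = 0.0272), PSMB1 (0.0125), PSMC2 (0.00707), PSMC3 (0.0400) and PSMC5 (0.0114). Over all genes the lower calls went from 19.7% to 23.1% with the block, and all calls from 5752 to 6793 of 15730. Of the 40 further genes tested, 19 fell and 4 rose with shFOXRED1, beside 19.7% lower and 16.8% higher of all genes. UBA6 fell by 0.96 ± 0.074, UCHL5 by 0.55 ± 0.081 and PSMG1 by 0.48 ± 0.096, while NFE2L1 rose by 0.17 ± 0.060.

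The knockdowns were compared in 1 fit over all 24 libraries. The log2 fold change differed for 27 of 33 members, against 55.5% of 17980 genes, and each of the 27 was lower with shYY2. The difference was -1.46 ± 0.070 for PSMC4 (adjusted p = 4.01e-17) and -1.13 ± 0.077 for PSMD14 (adjusted p = 1.32e-13). For PSMA2 (0.24 ± 0.23), PSMB7 (-0.029 ± 0.065), PSMD4 (-0.061 ± 0.065), PSMD10 (-0.067 ± 0.078), PSMB1 (-0.087 ± 0.069) and PSMC6 (-0.14 ± 0.068) no difference passed the threshold. PSMD9 differed by -0.79 ± 0.24 (adjusted p = 0.00635). The 16 members that fell with shFOXRED1 were all among the 30 that fell with shYY2, which is 100% of the shorter and 53.3% of the longer list, beside a share of 90.9% of members that fell with shYY2. Across the 33 members the log2 fold changes of both knockdowns had a Pearson's r of 0.446 and a Spearman's rho of 0.358, given as a description, since all members of an experiment share its 6 libraries. The FOXRED1 transcript itself fell by 0.89 ± 0.064 on the log2 scale with shYY2 and by 0.78 ± 0.11 with shFOXRED1.

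**Figure D3:**
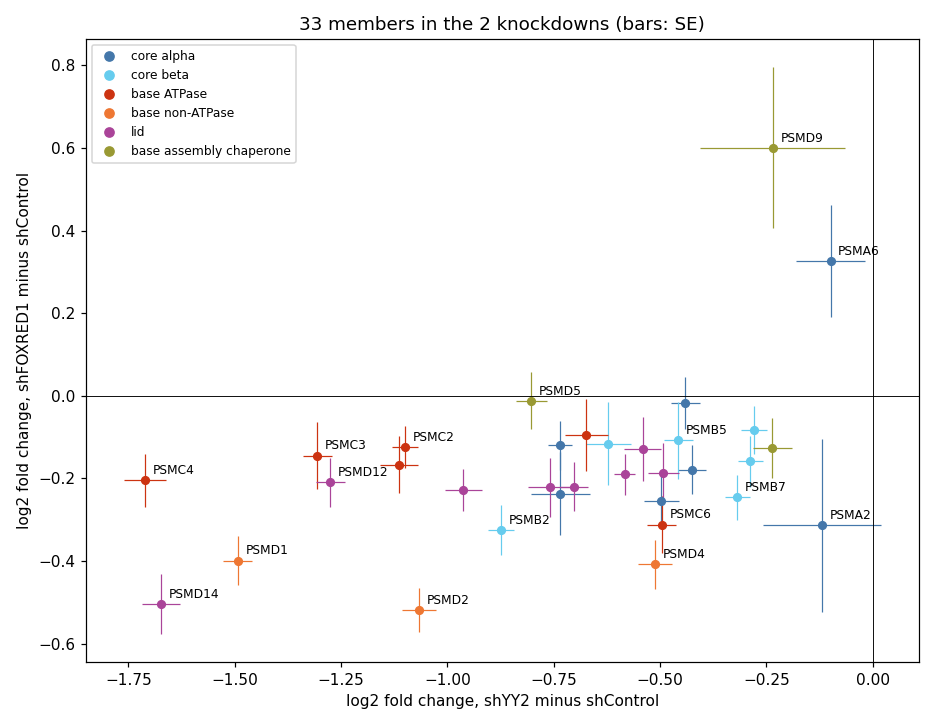
Log2 fold change of the 33 tested members with shYY2 (x axis) and with shFOXRED1 (y axis), each against its own shControl, with bars for the SE and colours for the subcomplex. Most points lie in the lower left part, PSMD14 at -1.67 and -0.50, and PSMD9 and PSMA6 lie above 0 on the y axis.

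HA-TRIM15 came with small falls, mostly of core genes. In total 7 of 33 members fell (21.2%) and 0 rose, against 9.53% lower and 12.5% higher of all 15745 genes. No member rose at an unadjusted p under 0.05 in edgeR's test or with DESeq2. Groups did not overlap for 13 members, against 37.7% of all genes. The core particle had 6 of 13 genes lower and a median of -0.13 on the log2 scale, the regulatory particle 1 of 20 and a median of -0.011, beside -0.0065 over all genes. PSMA2 was at 2.73, 2.99 and 2.66 CPM against 3.75, 3.65 and 4.27 CPM with EV, low in all libraries but without overlap (-0.49 ± 0.14, adjusted p = 0.0207). PSMA6 was at 8.57, 9.62 and 9.80 CPM against 10.8, 11.7 and 11.5 CPM, again without overlap (-0.29 ± 0.089, adjusted p = 0.0295). PSMB5 was at 101, 94.6 and 90.9 CPM against 111, 102 and 109 CPM, with the groups close to each other (-0.16 ± 0.045, adjusted p = 0.0182). PSMB1 fell by 0.16 ± 0.042, PSMB4 by 0.14 ± 0.038, PSMA5 by 0.13 ± 0.037 and the lid gene PSMD11 by 0.11 ± 0.031; PSMD11 stood at 251, 250 and 257 CPM against 278, 269 and 271 CPM.

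PSMB6 was at 63.6, 54.0 and 50.2 CPM with HA-TRIM15 against 61.3, 59.8 and 66.4 CPM, overlapping (-0.15 ± 0.069, adjusted p = 0.128), and PSMB7 at 215, 207 and 191 CPM against 209, 229 and 225 CPM, overlapping as well (-0.11 ± 0.044, adjusted p = 0.0825). PSMB6 and PSMB7 fell in edgeR's test without a filter on low counts (adjusted p = 0.00641 and 0.00933). Single libraries decided many of the calls with HA-TRIM15. Left out in turn, they gave between 2 and 8 lower core genes and between 0 and 6 lower regulatory genes, and moved the core median from -0.16 without HA-TRIM15 replicate 1 to -0.081 without HA-TRIM15 replicate 3 and the regulatory median from -0.029 without EV replicate 3 to -0.0030 without EV replicate 1. Without HA-TRIM15 replicate 1, 6 regulatory genes fell and PSMD12 rose in edgeR's test (log2 fold change 0.139, adjusted p = 0.00179). In that fit 20 members had groups that did not overlap, and PSMB6 and PSMB7 fell (adjusted p = 0.000384 and 0.00385). HA-TRIM15 replicate 1 had the lowest TRIM15 level of the HA-TRIM15 libraries (5.41 CPM against 8.45 and 11.4 CPM). The part of that level in these calls was not tested. The adjusted p of PSMB5 was 0.0650 without HA-TRIM15 replicate 2, 0.0615 without HA-TRIM15 replicate 3, 0.0847 without EV replicate 1 and 0.0738 without EV replicate 3. In the joint edgeR fit of all 24 libraries it was 0.06025. For PSMA2 it was 0.0632 without HA-TRIM15 replicate 3 and 0.105 without EV replicate 3. PSMA6 had 0.0747 without HA-TRIM15 replicate 1, 0.0564 without HA-TRIM15 replicate 2, 0.0996 without EV replicate 2 and 0.0969 without EV replicate 3, and 0.0633 with pseudogene counts added. DESeq2's Wald test gave PSMA6 an adjusted p of 0.0803. PSMD11 had 0.0916 without HA-TRIM15 replicate 2, and 0.105, 0.0546 and 0.0660 without EV replicates 1, 2 and 3. PSMB4 had 0.0705 and 0.0551 without HA-TRIM15 replicates 2 and 3, and 0.0671 and 0.0641 without EV replicates 1 and 2. PSMB1 had 0.0805 without HA-TRIM15 replicate 2 and 0.0744 without EV replicate 3, and PSMA5 had 0.113 and 0.0724 without EV replicates 1 and 2. Of the 40 further genes tested, 8 rose and 4 fell, beside 12.5% higher and 9.53% lower of all genes, NFE2L2 rising by 0.20 ± 0.036, ZFAND5 by 0.26 ± 0.034 and NFE2L1 by 0.13 ± 0.033.

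Against shYY2, in the joint fit, the change with HA-TRIM15 differed for 27 of 33 members, against 57.4% of all genes, and each of the 27 was higher with HA-TRIM15. The difference was 1.66 ± 0.067 for PSMC4 (adjusted p = 5.12e-19) and 1.60 ± 0.071 for PSMD14 (adjusted p = 4.30e-18). It did not pass the threshold for PSMB1 (0.089 ± 0.066), PSMB4 (0.10 ± 0.055), PSMD10 (0.073 ± 0.075), PSMD9 (0.19 ± 0.23), PSMA2 (-0.40 ± 0.23) and PSMA6 (-0.23 ± 0.13). Across the 33 members the log2 fold changes of these experiments had a Pearson's r of -0.45 and a Spearman's rho of -0.465, as a description: PSMC4, PSMD14 and PSMD1, which fell most with shYY2, had log2 fold changes of -0.012, -0.034 and -0.0073 with HA-TRIM15. FOXRED1 itself fell by 0.24 ± 0.052 with HA-TRIM15.

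Between the diets members differed in both directions, in shares near those of all genes. In HFD tumors 10 of 33 members rose (30.3%) and 7 fell (21.2%), against 25.6% higher and 23.9% lower of all 17012 genes. There was no overlap of groups for 18 members, against 56.2% of all genes. The median log2 fold change was 0.038 for the core and 0.0023 for the regulatory particle, beside -0.012 over all genes; without ND replicate 2 both medians were below 0, at -0.0055 and -0.0097. In the core 4 genes rose and 3 fell, and in the regulatory particle 6 rose and 4 fell. PSMD5, a base chaperone, rose most: 71.6, 74.0 and 71.2 CPM in HFD tumors against 52.4, 49.1 and 49.3 CPM in ND tumors. The tumors of each diet lay close together and far from the other diet (log2 fold change 0.52 ± 0.041, adjusted p = 2.71e-08). The chaperone gene PSMD10 also rose, by 0.34 ± 0.045 on the log2 scale. PSMC6 was at 117, 115 and 115 CPM against 89.1, 83.0 and 90.5 CPM (0.40 ± 0.039, adjusted p = 3.20e-07). PSMA4 was at 159, 170 and 159 CPM against 129, 113 and 129 CPM (0.40 ± 0.048, adjusted p = 4.04e-06), and PSMA7 at 234, 242 and 239 CPM against 199, 191 and 208 CPM (0.26 ± 0.037, adjusted p = 2.56e-05). All 3 genes were without overlap. PSMD14 rose by 0.28 ± 0.042, PSMD12 by 0.27 ± 0.039, PSMA3 by 0.20 ± 0.040, PSMD1 by 0.17 ± 0.041 and PSMB2, with overlapping groups, by 0.15 ± 0.048.

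PSMC2 was at 298, 295 and 279 CPM in HFD tumors against 329, 307 and 343 CPM (-0.17 ± 0.042, adjusted p = 0.00382), and PSMC5 at 111, 99.7 and 107 CPM against 118, 119 and 118 CPM (-0.16 ± 0.040, adjusted p = 0.00290). Both were lower in every HFD tumor than in any ND tumor. PSMB5 was at 90.4, 92.3 and 87.0 CPM against 101, 99.0 and 101 CPM, apart as well (-0.16 ± 0.037, adjusted p = 0.00202). PSMD3, PSMD11 and PSMB4 fell by 0.14 ± 0.035, 0.12 ± 0.035 and 0.10 ± 0.033. PSMA2 was at 3.07, 2.40 and 3.26 CPM against 3.52, 3.56 and 4.56 CPM (-0.36 ± 0.14, adjusted p = 0.0463). The PSMA2 call was lost in DESeq2's Wald test (adjusted p = 0.12). In edgeR's test without a filter on low counts the calls of PSMB4 (0.172) and PSMA2 (0.0790) were lost. The PSMA2 call also rested on single libraries: the adjusted p was 0.0823 without HFD replicate 1, 0.163 without HFD replicate 2, 0.0530 without ND replicate 1 and 0.181 without ND replicate 3. The call of PSMB4 was lost without any of the same libraries (adjusted p = 0.0517 to 0.0705) and without HFD replicate 3 (0.0684), so that 1 core gene fell in place of 3 without each of those 4. PSMD11 had an adjusted p of 0.0538 without HFD replicate 2, and PSMB2 had 0.0612 without HFD replicate 3 and 0.0714 without ND replicate 1. PSMB6 was at 49.0, 50.8 and 50.1 CPM against 51.8, 50.9 and 51.0 CPM (-0.035 ± 0.040, adjusted p = 0.502), and PSMB7 at 186, 184 and 176 CPM against 186, 177 and 192 CPM (-0.027 ± 0.039, adjusted p = 0.596). The PSMB6 groups were barely apart and the PSMB7 groups overlapped. Of the 40 further genes tested, 18 rose and 6 fell with HFD, beside 25.6% higher and 23.9% lower of all genes, among them UBE3C (0.53 ± 0.035), UBA6 (0.49 ± 0.038), UCHL5 (0.33 ± 0.039), NFE2L2 (0.31 ± 0.035) and POMP (0.29 ± 0.059) higher and NFE2L1 lower (-0.29 ± 0.034).

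**Figure D4:**
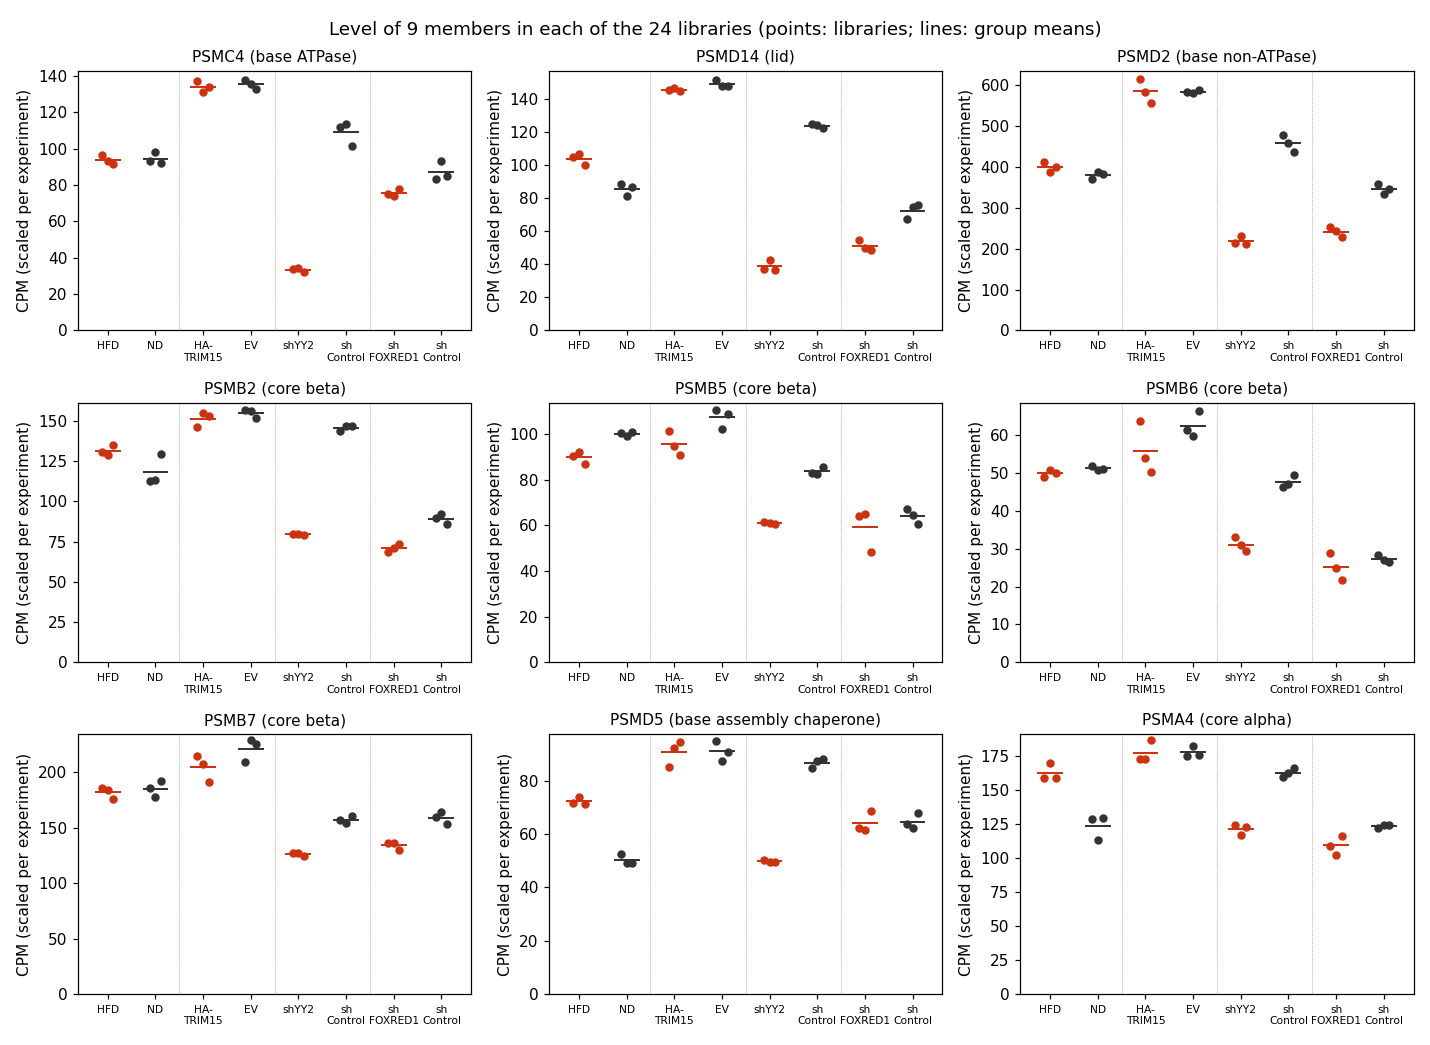
CPM, scaled within each experiment and drawn from 0, of 9 members in each of the 24 libraries, with treated libraries in red, controls in black and a line at each group mean. PSMC4 and PSMD14 drop to 31.9 to 42.5 CPM in the 3 shYY2 libraries, and PSMD5 and PSMA4 are higher in HFD than in ND tumors.

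HFD and HA-TRIM15, in the joint fit, had different effects on 13 members, against 28.4% of all genes, 12 of them higher with HFD and 1 lower. PSMD5 differed by 0.54 ± 0.065 (adjusted p = 1.29e-07) and PSMD10 by 0.47 ± 0.072 (adjusted p = 6.65e-06). PSMC2 was the member with a lower change in HFD tumors (-0.19 ± 0.056, adjusted p = 0.00927). PSMB5, which fell in both, differed by 0.012 ± 0.086. Over the 33 members the log2 fold changes had a Pearson's r of 0.378 and a Spearman's rho of 0.274, as a description.

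Summed over its genes, the core particle stood at 1041 to 1060 CPM with shYY2 against 1455 to 1496 CPM, and the regulatory particle at 2280 to 2319 CPM against 4053 to 4127 CPM. The regulatory sum was 2.18 to 2.22 times the core sum with shYY2 and 2.72 to 2.82 times in its control. PSMD3 held 34.3% to 34.5% of the regulatory sum in the control and 40.4% to 41% with shYY2, and without it the ratio was 1.29 to 1.32 against 1.78 to 1.85. With shFOXRED1 the ratio was 2.52 to 2.57 against 2.67 to 2.73, and with HFD 2.46 to 2.52 against 2.61 to 2.82. HA-TRIM15 libraries had the opposite order, 2.87 to 2.92 against 2.72 to 2.75. In none of the 4 experiments did the ratios of treated and control libraries overlap. Without PSMD3 the diet groups were barely apart, at 1.565 to 1.622 with HFD against 1.634 to 1.693. That ratio was 1.629 to 1.71 with shFOXRED1 against 1.754 to 1.819, and 1.833 to 1.918 with HA-TRIM15 against 1.759 to 1.771. No test was made on these sums; with 3 libraries against 3, an exact test could not go below 0.1.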

How the data were processed

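RNA of 24 OE33 samples was sequenced, and the authors deposited 1 table of raw read counts per Ensembl gene for each of the 4 experiments; the labels list the builds hg38 and mm10, while the aligner, counter, annotation and strand setting are not given in the sources used here, and whether mouse reads were removed from xenograft libraries is not given either. The labels name a directional library kit and the study's methods its unstranded form. The TRIM15 table has 10 header cells, 3 of them empty, and its 6 names were taken in order over its 6 value columns.

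Columns were matched to samples by name. Symbols were matched to IDs through a table of gene names and, where it gave none, through RefSeq genes. GENCODE 29 gave exon lengths and overlaps between genes. The members and lists were chosen with earlier results of these data known. Genes were filtered with filterByExpr (at least 10 counts in enough libraries, 15 in total), scaled by TMM and fitted per experiment with edgeR 4.0.16 (R 4.3.3, limma 3.58.1) by glmQLFit and glmQLFTest, two-sided. Adjusted p-values are Benjamini-Hochberg values over all genes tested, and 0.05 was the threshold. A log2 fold change is treated minus control and is printed with its SE. CPM is counts scaled to 1000000 per library with TMM factors within an experiment. Differences between 3 pairs of experiments came from 1 fit of 24 libraries. The scripts were tested on simulated data.

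Named genes were PSMB5, PSMB6 and PSMB7 with every library, per experiment and particle the 2 called members with the largest rise and fall and no overlap, and other members and list genes by fold change. Total counts of 14299807 to 45994561 set the precision, and no 2 replicates agreed within sampling noise. Replicate numbers were checked by the correlation of deviations from group means. Over 10714 genes with a mean count of at least 100 it was 0.176, 0.118 and 0.34 in the FOXRED1 experiment. The other experiments had a pair under 0.1. Over 15533 genes with at least 10 it was 0.0182 to 0.0781 in the FOXRED1 experiment, and no label gives a reason for pairing. The main fit of every experiment, also that of FOXRED1, had no replicate block, and the block was run as an alternative. Alternatives were DESeq2 1.42.0 size factors and Wald test, other count filters, the replicate block, a fold of at least 1.2, pseudogene counts added, a joint fit, longest transcripts as length, shorter promoter windows, and leaving out each library.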

Additional observations from a re-analysis of the deposited data

Results flagged for a closer look

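Differences of fold changes between experiments, tested in 1 fit of 24 libraries, were found for 13 of 33 members between HFD and HA-TRIM15, for 27 between HA-TRIM15 and shYY2 and for 27 between shYY2 and shFOXRED1, where 28.4%, 57.4% and 55.5% of all 17980 genes differed. The largest differences between HFD and HA-TRIM15 were 0.54 for PSMD5 and 0.47 for PSMD10 on the log2 scale. Between HA-TRIM15 and shYY2 they were 1.66 for PSMC4 and 1.60 for PSMD14. Between shYY2 and shFOXRED1 they were -1.46 for PSMC4 and -1.13 for PSMD14. Between the first 2 pairs of experiments the time or the setting (tumors in mice, cells in culture) differed together with the treatment, so their parts cannot be told apart. The shYY2 and shFOXRED1 experiments shared time and setting, but each had its own controls, and these differed. Members took 0.547% to 0.555% of counts in the shControl libraries of the YY2 experiment and 0.391% to 0.401% in those of the FOXRED1 experiment. The part of the experiment in the third difference was not tested.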

How the results depend on the processing

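All alternatives were planned. In the YY2 experiment 11 core and 19 regulatory genes fell under every alternative run, except that 18 regulatory genes fell by at least 1.2-fold; the core median was -0.42 with at least 10 counts in every library, -0.41 in the joint fit and -0.48 to -0.43 without single libraries. A fold of at least 1.2 left 1 core gene higher, 1 core gene lower and 0 regulatory genes lower with HFD, 2 core and 0 regulatory genes lower with HA-TRIM15, 1 core and 5 regulatory genes lower with shFOXRED1, and 7 members that differed between HFD and HA-TRIM15. Without a count filter 1 core gene fell with HFD and 3 regulatory genes with HA-TRIM15. The core genes PSMA7, PSMB6 and PSMB7 also gained a lower call with HA-TRIM15 in that edgeR fit (adjusted p = 0.0385, 0.00641 and 0.00933). The replicate block also gave 3 regulatory genes lower with HA-TRIM15. It gave 6 core and 15 regulatory genes lower with shFOXRED1, and changed no other count by over 1.5 times. The joint fit gave 7 core genes lower and 1 higher with shFOXRED1, and PSMD8 lost its call with shFOXRED1 under every other scaling or filter and with DESeq2. Leaving out single libraries gave 1 to 3 core genes lower with HFD, 2 to 8 core genes lower, 0 to 6 regulatory genes lower, 0 to 1 regulatory genes higher and 13 to 20 members without overlap with HA-TRIM15, and 0 to 1 regulatory genes higher with shFOXRED1. It gave PSMB7 with HFD log2 fold changes from -0.056 to 0.0070, with 0.0010 without HFD replicate 3 and 0.0070 without ND replicate 3, and PSMB5 with shFOXRED1 from -0.18 to 0.011, the last without shFOXRED1 replicate 3; neither gene was called. The promoter word CCGGAAG was found in 7 members before the start. The cause was not tested. Low counts limit PSMA2, PSMA6, PSMD9 and PSMB3.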
